A study of Homo sapiens with 6 samples.

Results

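PFKP, the gene of the platelet isoform of phosphofructokinase, was followed in human SK-Hep1 cells in which TARDBP had been knocked down. The gene was read through 1 probe, ILMN_1805737, out of 47231 on the array. PFKP is 1 of 20046 genes that the annotation pairs with a probe, and it has 1 further probe. The gene was chosen by its large siTARDBP minus siLuc difference in these same 6 arrays, so that difference is described here without a test. SK-Hep1 is an adherent line that the labels describe as hepatocellular carcinoma. Total RNA was copied into biotin-labelled cRNA and hybridised to 6 one-colour Illumina Human-Ht12 bead arrays. Of these, 3 held control cells labelled siLuc and 3 held cells labelled siTARDBP, and all were of the same line with no other treatment named. A name of the form siLuc usually stands for a small interfering RNA against luciferase, which these cells lack, but the labels say only that these samples are controls. The labels give neither the siRNA sequences nor the time of harvest, and they leave unsaid whether replicates were separate cultures. The p-values therefore cover the spread among these 6 samples alone, and that spread may be technical.

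Phosphofructokinase adds a second phosphate to fructose 6-phosphate, the step that commits a sugar to glycolysis. It is encoded in humans by PFKL (liver), PFKM (muscle) and PFKP (platelet), whose products assemble into tetramers. TARDBP encodes TDP-43, an RNA-binding protein that acts in splicing, keeps unannotated (cryptic) exons out of mature messages and takes part in microRNA processing. The published account of this study places PFKP downstream of TARDBP, with microRNAs of the miR-520 family between them.

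The mature miR-520 sequences are shown because the seed, bases 2 to 8 counted from the 5′ end and printed in capitals, is the part of a microRNA that chiefly pairs with a message. Shown are those named 3p and miR-520h, and any products named for the opposite arm were left out. The sequences were taken from RefSeq on GRCh38.p14, where the 8 lie on the plus strand of chromosome 19 between 53675764 and 53742587.
hsa-miR-520a-3p: aAAGUGCUucccuuuggacugu
hsa-miR-520b-3p: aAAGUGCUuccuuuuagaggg
hsa-miR-520c-3p: aAAGUGCUuccuuuuagagggu
hsa-miR-520d-3p: aAAGUGCUucucuuuggugggu
hsa-miR-520e-3p: aAAGUGCUuccuuuuugaggg
hsa-miR-520f-3p: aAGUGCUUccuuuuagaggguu
hsa-miR-520g-3p: aCAAAGUGcuucccuuuagagugu
hsa-miR-520h: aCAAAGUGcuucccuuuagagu
The 8 fall into 3 seeds. The a, b, c, d and e members share AAGUGCU, the f member has AGUGCUU, and the g and h members share CAAAGUG. All 8 hold the run AAGUGCUUC, 9 bases long, so the seeds differ by where this run sits. A site for these seeds in the PFKP message was not searched here.

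Levels are given as log2 of the intensity after background correction and quantile normalisation, and differences are siTARDBP minus siLuc. A probe was tested where its intensity exceeded an estimated background on 3 or more of the 6 arrays, as 15136 probes (32.0%) did. The arrays had median raw intensities of 64.4 to 83.0. Replicate 2 of both groups had a lower background than the other 4 arrays (mode of 58.9 and 59.3 against 71.5 to 75.9 intensity units), so each background class held both groups. Of 8 hepatocyte markers, 2 were tested, SERPINA1 and, dimly, ALB. APOA1, APOB, TTR and TF were not above background on any array, AFP was on 2 siLuc arrays only and was not tested, and HNF4A had no probe. Of 6 endothelial markers ENG alone was tested, and of 5 mesenchymal markers VIM, CAV1, CDH2 and SPARC were, so the labelled liver origin was not visible in most hepatocyte markers. None of the tested hepatocyte and endothelial markers passed an adjusted p of 0.05 in limma between the groups, nor an unadjusted one, on its brightest probe. Of the 4 tested mesenchymal markers 1 was called, where 11.8% of all genes, each read by its brightest tested probe, were called. VIM, CDH2 and SPARC did not pass on their brightest probes, at differences of 0.0035, 0.12 and 0.11. CAV1, a coat protein of caveolae, was higher by 0.36 (SE 0.10, limma adjusted p = 0.0323) and by 0.62 on a second probe (limma adjusted p = 0.000608). The call of the first CAV1 probe was lost without any one array other than siLuc replicate 1 (limma adjusted p up to 0.144). In such bulk samples, fewer cells of a type and less RNA per cell cannot be told apart.

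The targeted gene was lower in all 3 knockdown arrays. TARDBP (chromosome 1, 11012654 to 11030528 on GRCh38.p14) was measured by the probe ILMN_1677532 at 7.95, 7.95 and 7.69 in siLuc and at 7.05, 6.82 and 6.75 in siTARDBP. The groups did not overlap, and the difference of -0.98 (SE 0.11, 50.6% of siLuc, limma adjusted p = 1.59e-05) exceeded the spread between replicates. The probe was above background on all 3 siLuc and on 2 of 3 siTARDBP arrays, so the remaining level lies close to what the arrays can show.

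In siLuc, PFKP was among the brightest probes of the array, and in siTARDBP it stood at about 22.2% of that level. Raw intensities of ILMN_1805737 were 5557, 4712 and 5418 in siLuc and 1338, 933 and 874 in siTARDBP, means of 5229 ± 453 and 1048 ± 253 (SD, n = 3 each). After normalisation the siLuc arrays read 12.29, 12.32 and 12.23 and the siTARDBP arrays 10.20, 10.15 and 9.97. The control arrays lay within 0.084 of each other and the knockdown arrays within 0.23, while 2.03 separated the lowest control from the highest knockdown array. Group means were 12.28 ± 0.043 and 10.11 ± 0.12 (SD, n = 3 each), which differ by -2.17 (SE 0.096), or 4.51-fold lower.

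**Figure D1:**
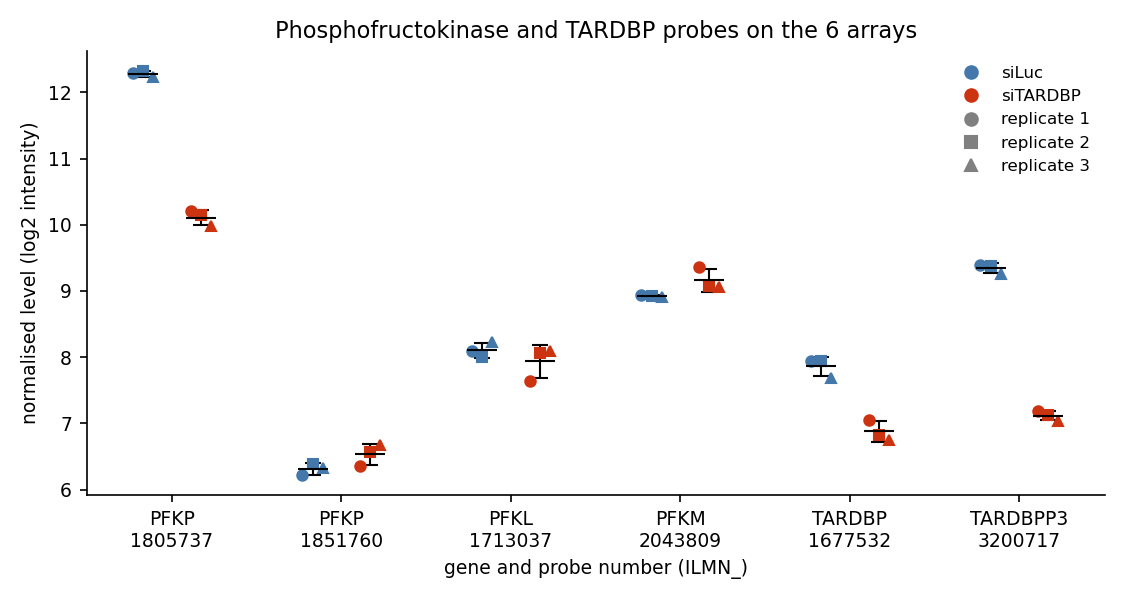
Normalised log2 level (y axis) of both PFKP probes, PFKL, PFKM, TARDBP and TARDBPP3 (x axis), with points for the 6 arrays and bars for the group mean and its SD (n = 3). For the bright PFKP probe the siLuc arrays sit between 12.23 and 12.32 and the siTARDBP arrays between 9.97 and 10.20.

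The 3 knockdown arrays agreed in size as well as in direction. Against the siLuc mean, siTARDBP replicate 1 differed by -2.08 (23.7% of siLuc), replicate 2 by -2.13 (22.8%) and replicate 3 by -2.31 (20.2%). Over all 9 pairs of a control and a knockdown array the difference lay between -2.03 and -2.34. Within the low-background arrays, 1 per group, the difference was -2.17, and within the other 4 it was -2.16.

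Neither end of the scale limited the PFKP reading. In siLuc only 802 to 848 probes (1.70% to 1.80%) were brighter than PFKP, and in siTARDBP 2861 to 3267 (6.06% to 6.92%) were. The raw intensity stood 42.3 to 57.9 times above the estimated background level in siLuc and still 7.39 to 11.6 times above it in siTARDBP. The brightest probe of each array lay between 23102 and 26258 intensity units, well above the PFKP readings. The normalised spread within groups, a pooled SD of 0.090, was smaller than the median of 0.12 over tested probes, and 28.0% of tested probes varied less.

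The position of PFKP among all probes is what led to its choice and supports nothing further. Its fall was the second largest of 15136 tested probes and of 9316 tested genes. A single probe fell further, by 2.23 on the log2 scale, and it is annotated to TARDBPP3, a pseudogene of TARDBP. The TARDBPP3 probe was above background on 2 of 3 siTARDBP arrays, so the size of its fall is not well measured. The next below PFKP differed by -1.49, so the values just inside and just outside this pair were -2.17 and -1.49. In limma 11.2% of the tested probes were called at an adjusted p of 0.05, 5.87% higher and 5.34% lower in siTARDBP. With the arrays scaled by the median of all probes instead, 282 probes were higher and 733 lower. A fall of over 4-fold was measured for 2 probes (0.0132%), PFKP and TARDBPP3, and one of over 2-fold for 21 (0.139%). All 3 knockdown arrays lay under all 3 controls for 15.2% of tested probes.

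**Figure D2:**
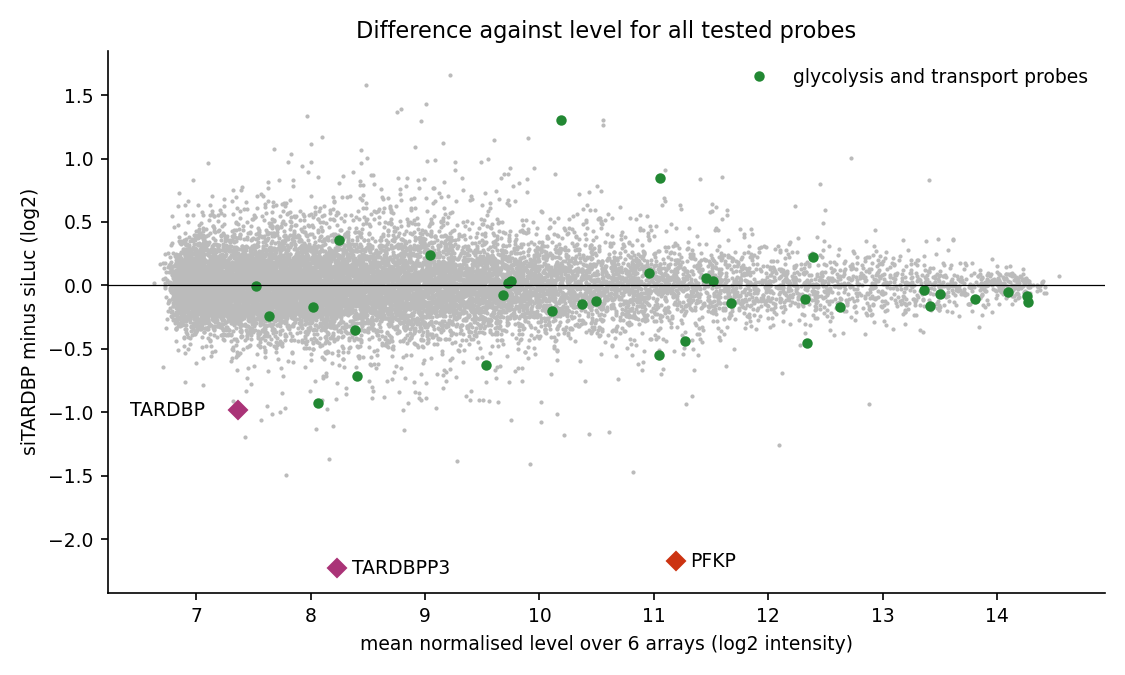
Each point is a tested probe, with its mean normalised log2 level on the x axis and its siTARDBP minus siLuc difference (log2) on the y axis. PFKP and TARDBPP3 lie apart from the cloud at -2.17 and -2.23, PFKP at a much brighter level, and TARDBP lies at -0.98, while green points are the glycolysis and transport probes.

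The second PFKP probe gave no reading. ILMN_1851760 was not above background on any of the 6 arrays, and its raw intensity averaged 65.0 ± 6.15 in siLuc and 77.6 ± 12.6 in siTARDBP (SD, n = 3 each), with overlapping groups. PFKP spans 69258 bases on chromosome 10 (3067548 to 3136805, GRCh38.p14). Where either probe lies in the transcript, in an exon or in an untranslated region, is not given in the annotation used here. The difference of -2.17 therefore rests on 1 probe, and a change in part of the message cannot be told apart from one in all of it.

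The other phosphofructokinase genes did not pass the test. PFKL, the liver isoform, read 8.10 ± 0.11 in siLuc (SD, n = 3) and 7.64, 8.07 and 8.09 in siTARDBP, a difference of -0.17 (SE 0.12, limma adjusted p = 0.404) with overlapping groups. A second PFKL probe was not above background on any array. PFKM, the muscle isoform, read 8.94, 8.92 and 8.90 in siLuc and 9.36, 9.07 and 9.05 in siTARDBP. The PFKM groups did not overlap, which held for 29.5% of tested probes, but the difference of 0.24 (SE 0.10, limma adjusted p = 0.144) did not pass. Both differences were small beside that of PFKP, which was chosen for its size. Brightness of different probes does not rank transcripts, so these levels do not say which isoform prevailed.

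Of the 7 enzymes listed around fructose 6-phosphate and its bisphosphates, 3 genes were tested and PFKFB4 was lower. PFKFB4 makes and degrades fructose 2,6-bisphosphate, the allosteric activator of phosphofructokinase. It read 8.34, 8.62 and 8.61 in siLuc and 7.61, 7.74 and 7.44 in siTARDBP, a fall of 0.93 on the log2 scale (SE 0.11, limma adjusted p = 2.63e-05) with no overlap. PFKFB3, another such enzyme with high kinase activity, differed by 0.10 on its brightest probe (limma adjusted p = 0.547) and by 0.36 on another (limma adjusted p = 0.0516), on which the groups did not overlap. The second value crossed the threshold in 5 of 17 alternatives: under cyclic loess, with probes above background on all 6 arrays, with the replicate block, and without siLuc replicate 1 (limma adjusted p = 0.0231) or siTARDBP replicate 2 (limma adjusted p = 0.0444). Its limma adjusted p ranged from 0.0231 to 0.308 over all 17. TIGAR, a fructose 2,6-bisphosphatase, differed by 0.03 (limma adjusted p = 0.868). PFKFB1, PFKFB2, FBP1 and FBP2 were not above background on enough arrays to be tested.

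Along the rest of glycolysis and the carriers of glucose and lactate, a minority of genes was lower and, by their brightest probes, none was higher. Counted with PFKL, PFKM and the bisphosphate enzymes, 34 genes were listed, 30 had a probe and 22 were tested, each by its brightest tested probe. Of these 5 were lower and 0 higher at an adjusted p of 0.05 in limma, where 11.8% of all tested genes were called, 6.38% lower and 5.46% higher. At an unadjusted p under 0.05, 6 were lower and 1 was higher. With each gene read by its probe of largest difference instead, 7 were called, 6 lower and 1, PKM, higher. The share over all genes was not taken for the unadjusted counts or for that choice of probe. Neither therefore has a background to be read against. The median difference was -0.13 over the 22 genes and -0.023 over all 9316 genes. PFKP is not among the 22.

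HK1, the hexokinase that phosphorylates glucose in most tissues, was at 11.45, 11.58 and 11.44 in siLuc and at 11.12, 11.06 and 10.98 in siTARDBP, lower by a log2 difference of -0.44 (SE 0.093, limma adjusted p = 0.0057). That call was lost with the 4 higher-background arrays alone (limma adjusted p = 0.078). HK2, the other hexokinase tested, differed by -0.21 and -0.07 on its probes, and neither passed. SLC2A1, the widespread glucose carrier GLUT1, was at 9.87, 9.74 and 9.94 in siLuc and at 9.10, 9.51 and 9.06 in siTARDBP, a difference of -0.63 (SE 0.12, limma adjusted p = 0.00205). The knockdown arrays of SLC2A1 differed among themselves, with -0.23 in the low-background pair and -0.82 in the other 4 arrays. Neither SLC2A3, a further glucose carrier, nor SLC16A7, a lactate carrier, passed the test.

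Below the phosphofructokinase step, PGK1 and ENO2 were lower. PGK1, which makes the first ATP of the pathway, read 12.67, 12.51 and 12.53 in siLuc and 12.42, 12.10 and 11.83 in siTARDBP, a difference of -0.45 (SE 0.12, limma adjusted p = 0.0265). That call was lost without any one array other than siTARDBP replicate 1 (limma adjusted p up to 0.159), whereas a second PGK1 probe, at -0.55 (limma adjusted p = 0.00157), kept its call in every alternative run. ENO2, an enolase best known from neurons, read 8.86, 8.89 and 8.54 in siLuc and 8.09, 8.11 and 7.95 in siTARDBP, a difference of -0.72 (SE 0.11, limma adjusted p = 0.000307). ENO1, the widespread enolase, differed by -0.11 (limma adjusted p = 0.542).

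PKM and LDHA, which act at the end of the pathway, read differently from probe to probe. PKM, the pyruvate kinase with 2 alternatively spliced forms in most tissues, differed by 0.22 on its brightest probe (limma adjusted p = 0.302). Its other probes were higher, by 0.85 (limma adjusted p = 0.00032) and by 1.30 (limma adjusted p = 3.1e-05). On the last of these the siLuc arrays read 9.56, 9.51 and 9.55 and the siTARDBP arrays 11.32, 10.44 and 10.77, with no overlap. Which PKM transcripts these probes read is not given in the annotation used here. LDHA, the lactate dehydrogenase subunit of glycolytic cells, differed by -0.09 and -0.13 on its bright probes, neither past the threshold, and by -0.35 on a dim one (limma adjusted p = 0.0257). The dim LDHA call was lost without siLuc replicate 1 or 3 or siTARDBP replicate 3 (limma adjusted p up to 0.112). GPI, ALDOA, TPI1, GAPDH, PGAM1, ENO3 and LDHB, the enzymes between and beside these steps, did not pass.

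**Figure D3:**
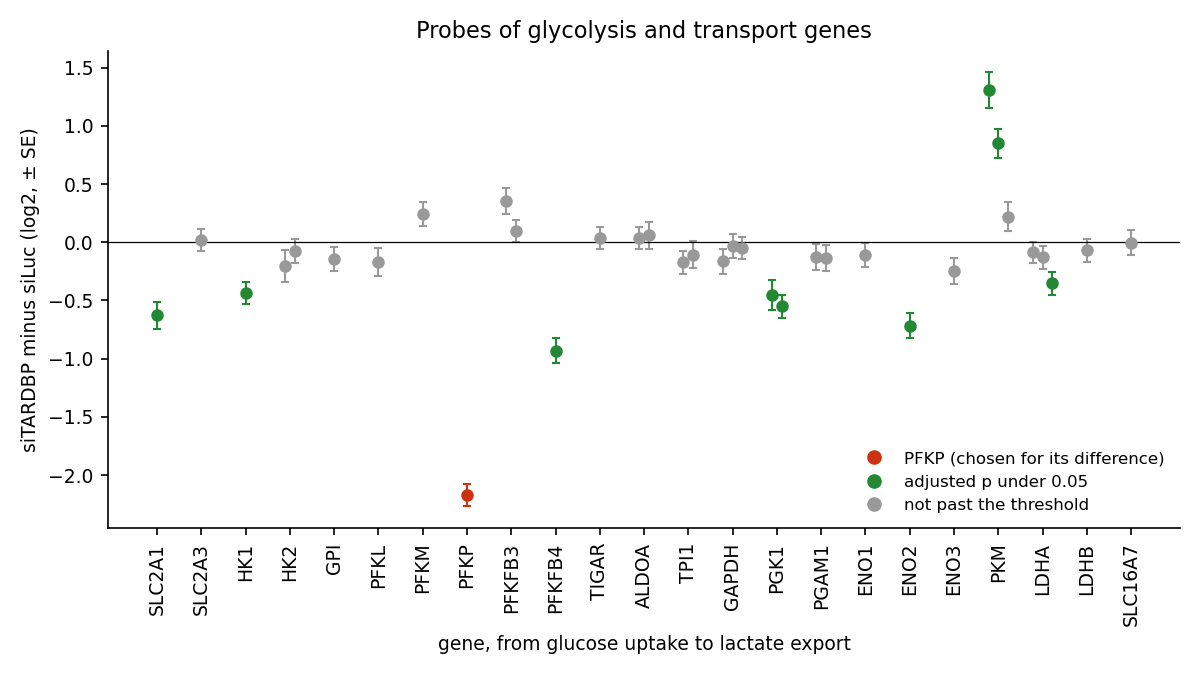
Difference siTARDBP minus siLuc (log2) of each tested probe of the glycolysis and transport genes, in the order of the pathway, with bars for the standard error, green for an adjusted p under 0.05 in limma and grey for the others. PFKP at -2.17 lies below all others, the next being PFKFB4 at -0.93, and 2 of the 3 PKM probes lie above 0.8.

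Of 14 listed genes of the pentose phosphate, hexosamine and glycogen branches that leave glycolysis before or beside PFKP, 12 were tested, 1 was higher and 2 were lower in limma, with a median difference of 0.082. RPIA, ribose 5-phosphate isomerase, rose from 8.87, 8.82 and 8.65 in siLuc to 9.82, 9.74 and 9.70 in siTARDBP, a difference of 0.97 (SE 0.096, limma adjusted p = 6.6e-06). RPE, the epimerase that acts on the same ribulose phosphate, was lower by a difference of -0.37 (SE 0.097, limma adjusted p = 0.0216). GFPT1, which opens the hexosamine branch from fructose 6-phosphate, differed by -0.33 (limma adjusted p = 0.031) on its brightest probe and by -0.16 (limma adjusted p = 0.444) on another. The RPE call was lost without siLuc replicate 1 or 3 or siTARDBP replicate 2 (limma adjusted p up to 0.0758), and the GFPT1 call without any one array other than siLuc replicate 3 (up to 0.126). RPIA alone kept its call in every alternative run. UGP2, also listed, differed by -0.06 on its brightest probe (limma adjusted p = 0.772) and did not pass. A dim UGP2 probe differed by -0.42 (limma adjusted p = 0.0426), with overlapping groups, and the further tested UGP2 probes did not pass. The counts, 3 of 12 called against 11.8% of all genes, rest on few genes.

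PFKP is also among the human genes for which a cryptic exon after loss of TDP-43 has been described. Of 16 other such genes 15 had a probe and 9 were tested, of which 1 was higher, 3 were lower and 5 did not pass, with a median difference of 0.013. Over all tested genes 11.8% were called, 5.46% higher and 6.38% lower. RANBP1, a partner of the nuclear transport protein Ran, read 12.79, 12.74 and 12.64 in siLuc and 11.39, 11.51 and 11.49 in siTARDBP, a fall of 1.26 on the log2 scale (SE 0.093, limma adjusted p = 2.75e-07). A second RANBP1 probe differed by -1.16 (SE 0.095, limma adjusted p = 1.09e-06). Both RANBP1 probes had groups far apart relative to their spread.

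ATG4B, a protease of autophagy, read 8.33, 8.65 and 8.50 in siLuc and 7.83, 7.96 and 7.86 in siTARDBP, a difference of -0.61 (SE 0.10, limma adjusted p = 0.000803). AGRN, an extracellular proteoglycan, was higher by 0.40 (SE 0.099, limma adjusted p = 0.0148), and RSF1, a chromatin remodelling subunit, was lower by a difference of -0.33 (SE 0.10, limma adjusted p = 0.0438). The AGRN call was lost without siLuc replicate 3 or siTARDBP replicate 1 or 3 (limma adjusted p up to 0.0703), and that of RSF1 without any one array other than siLuc replicate 3 (up to 0.184). Over all alternatives the limma adjusted p ranged from 0.0121 to 0.312 for AGRN and from 0.0254 to 0.204 for RSF1. RANBP1 had the largest difference among the tested genes of the list. That PFKP exceeded all of them follows from its choice by this difference. GPSM2, EPB41L4A, HDGFL2, CEP290 and ARHGAP32 did not pass. STMN2 and UNC13A, the best known of these genes in neurons, were not above background on enough arrays, nor were INSR, KALRN, ACTL6B and ELAVL3. These probes report a level at 1 place of a transcript, so no splicing could be read from them.

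**Figure D4:**
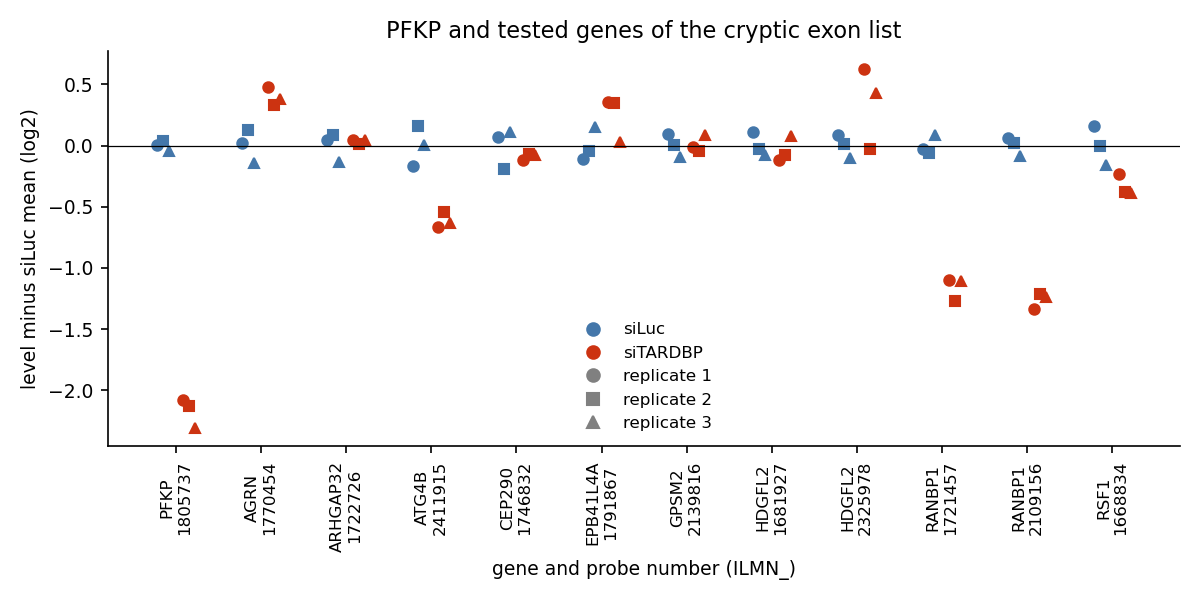
Normalised log2 level relative to the siLuc mean on each array for PFKP and the tested genes with a described TDP-43 cryptic exon, one point per array and one column per probe. PFKP lies at -2.08 to -2.31 in siTARDBP, RANBP1 falls by 1.26 on average, and the remaining genes lie closer to 0.

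The miR-520 step could not be read from these arrays. Of the 8 miR-520 genes MIR520H alone had a probe, which was not above background on any array, at raw intensities of 43.5 to 59.4. Such a probe reads labelled polyadenylated RNA, not the mature microRNA. Of 10 listed proteins of microRNA processing and action 9 were tested, and 1 was higher and 0 lower in limma, with a median difference of -0.057, where 11.8% of all tested genes were called. At an unadjusted p under 0.05, 2 were higher and 0 lower, but the share over all genes was not taken at that threshold. TARBP2, the double-stranded RNA-binding partner of Dicer, differed by 0.35 on its brightest probe (SE 0.098, limma adjusted p = 0.0272) and by -0.02 on another (limma adjusted p = 0.928). The TARBP2 call was lost without siLuc replicate 1 or 3 or siTARDBP replicate 2 or 3 (limma adjusted p up to 0.123), and in 7 of 17 alternatives in all. DROSHA, DGCR8, XPO5, DICER1, AGO1, AGO2, AGO3 and TNRC6A did not pass on their brightest probes, and AGO4 was not tested. A dim TNRC6A probe was above background on all 3 siTARDBP arrays and on 0 siLuc arrays, so it entered the test only through siTARDBP and its difference is not given.

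Of 5 transcription factors that have been described at the PFKP promoter, 4 were tested. Of these 1 was higher and 0 lower in limma, where 11.8% of all tested genes were called. MYC, a factor that drives growth and glycolytic genes, was at 10.93, 10.99 and 10.99 in siLuc and at 11.48, 11.39 and 11.40 in siTARDBP, higher by 0.45 (SE 0.090, limma adjusted p = 0.00344). A second MYC probe differed by 0.27 (limma adjusted p = 0.0701), with no overlap of the groups. The call of the brighter probe was lost under scaling by the median of all probes (limma adjusted p = 0.232). The direction of MYC was opposite to that of PFKP, and whether MYC bears on the PFKP level here was not tested. HIF1A, the oxygen-regulated factor, differed by -0.11 on its brightest probe (limma adjusted p = 0.615). On further HIF1A probes it differed the other way, by 0.19 (limma adjusted p = 0.359) and 0.15 (limma adjusted p = 0.467), with overlapping groups. Neither KLF4 nor YY1 passed, and SNAI1 was not tested.

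Among the neighbours of PFKP on chromosome 10, PITRM1 alone had a probe. PITRM1 (3137727 to 3172841, GRCh38.p14), a mitochondrial peptidase whose gene lies next to PFKP, read 8.83, 8.80 and 8.80 in siLuc and 9.14, 9.19 and 9.21 in siTARDBP. It was higher by 0.37 (SE 0.089, limma adjusted p = 0.0126), again opposite to PFKP. That call was lost without siLuc replicate 2 (limma adjusted p = 0.0511) or siTARDBP replicate 3 (limma adjusted p = 0.0537), over a range of 0.0097 to 0.331 in all alternatives. SNORD142, which lies within PFKP, the divergent transcript PFKP-DT, PITRM1-AS1 and 2 unnamed loci had no probe.

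The probes most like PFKP over the 6 arrays were found by the root mean square difference between profiles, each set to 0 at its own siLuc mean. This measure uses the same contrast as the choice of PFKP, so the values below are a description. TARDBPP3 came nearest at 0.055, followed by NPPB at 0.54, CDK6 at 0.55, USP13 at 0.57 and AK4 at 0.58. TARDBPP3 (chromosome 2, 238231686 to 238234345, GRCh38.p14) gave raw readings of 779, 607 and 644 in controls against 151, 106 and 115 after knockdown, a log2 difference of -2.23 (SE 0.093). It was above background on 3 siLuc and 2 siTARDBP arrays, so its remaining level lies close to what the arrays can show. The size of its fall, and with it the nearness to PFKP, is therefore not well measured. Because a pseudogene resembles its parent, whether its probe read TARDBP RNA was not tested, and a second TARDBPP3 probe was too dim to be tested.

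As follows from the rank of PFKP, the other 4 had smaller measured differences. NPPB, which encodes B-type natriuretic peptide, differed by -1.49 (SE 0.13), CDK6, a kinase of the early cell cycle, by -1.41 (SE 0.097), and USP13, a deubiquitinase, by -1.37 (SE 0.095). AK4, a mitochondrial adenylate kinase, differed by -1.39 (SE 0.13). The NPPB probe was above background on 3 siLuc and 2 siTARDBP arrays, so its remaining level lies close to what the arrays can show. The size of its fall is therefore not well measured. Further probes pointed the same way, at -1.06 for USP13 and at -0.85, -1.11 and -1.14 for AK4, while one AK4 probe was not above background. This further USP13 probe was also above background on 3 siLuc and 2 siTARDBP arrays. Since every profile is set to 0 at its siLuc mean, the measure mostly follows the size of the fall.

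**Figure D5:**
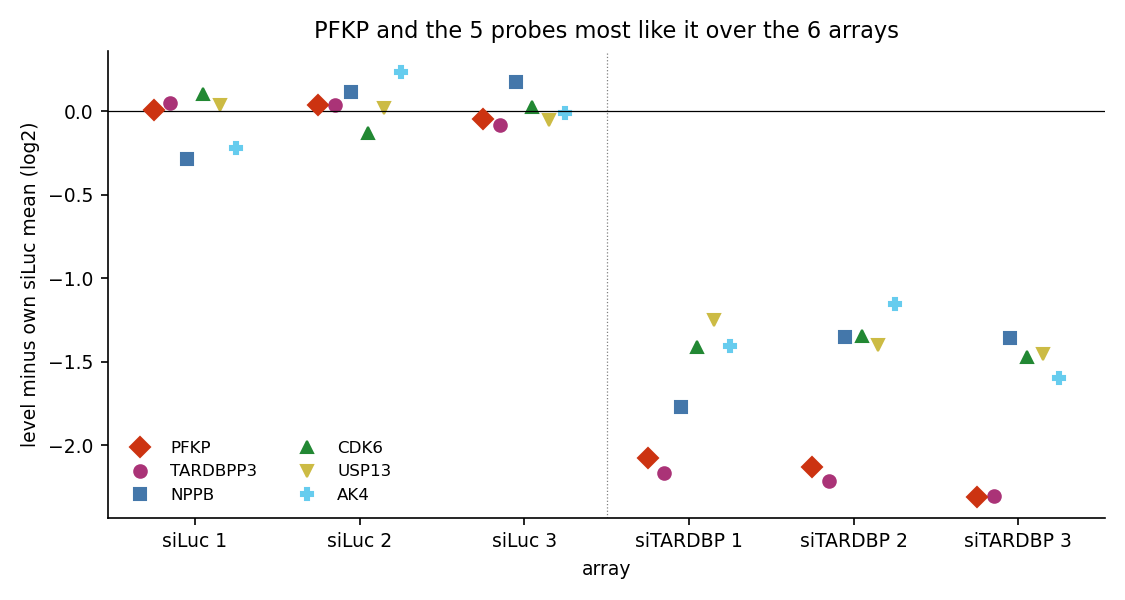
Normalised log2 level minus the siLuc mean of the same probe on each array, for PFKP and the 5 probes nearest to it. TARDBPP3 overlies PFKP in siTARDBP at -2.17 to -2.31, while NPPB, CDK6, USP13 and AK4 lie higher.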

How the data were processed

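Raw probe intensity (linear scale, not normalized) was exported by the authors with BeadStudio, per the labels and the submitters' processing notes. Its version and any background subtraction are not given in those sources. The authors' deposited series matrix values are log2 intensities with equal distributions on every array (median 6.12), a scale found from the values, and served as an alternative. Intensities were corrected by normexp without negative controls (offset 50), quantile-normalised, taken to log2 and fitted with limma's lmFit and eBayes (R 4.3.3, limma 3.58.1), with Benjamini-Hochberg adjustment over 15136 probes. A probe was tested if above a level derived from the mirrored dim peak on at least 3 of 6 arrays. The offset compresses the changes of dim probes. The procedure was tested on simulated data.

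Symbols came from the platform annotation; 30113 probes had 1 gene, 8 several and 17110 were not named. A gene was read by its brightest tested probe. Named were all probes of PFKP, PFKL, PFKM and TARDBP, list members past the threshold, the phosphofructokinase and bisphosphate lists, the 5 nearest profiles and 3 neighbouring genes on each side. Some further genes, such as those that did not pass, were chosen after their values were seen. Members and lists were chosen with earlier results of these data known. Deviations from the group mean correlated by 0.11, 0.10 and -0.0025 between same-numbered arrays and by -0.16 to 0.064 between the others. Replicates 1 and 2 thus gave the highest values and replicate 3 did not. Replicate numbers were not taken as pairs, and a replicate block served as an alternative. The number of arrays limits the precision.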

Additional observations from a re-analysis of the deposited data

How the results depend on the processing

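The PFKP difference of -2.17 lay between -2.30 and -2.11 over 17 alternatives and between -2.23 and -2.11 with 1 array left out. It moved by more than 1 SD in 1 of them, scaling by the median of all probes (-2.30), under which the median of all tested probes was -0.088. TARDBP kept its call in 16 alternatives (-1.25 to -0.91); requiring background on all 6 arrays dropped its probe. The 1696 called probes became 1015 under scaling by the median of all probes (27.8% higher against 52.4%) and 835 with the 4 higher-background arrays, which are fewer samples. With 1 array left out, 956 to 1786 were called, 956 without siLuc replicate 2 and 966 without siTARDBP replicate 3. The 5 glycolysis and transport genes became 3 with the 4 higher-background arrays and 4 to 5 with 1 array left out. By the probe of largest difference they became 7 (6 lower, 1 higher), a choice for which no share over all genes was taken. The 4 cryptic exon genes became 2 under scaling by the median of all probes and 2 to 4 with 1 array left out, 2 without siTARDBP replicate 1 or 3. The 1 microRNA machinery gene became 0 under that scaling, with no filter and with the 4 higher-background arrays. By the probe of largest difference it became 2, but the added gene, TNRC6A, entered the test on that probe only through siTARDBP. That count of 2 therefore supports nothing. With 1 array left out it became 0 to 1, 0 without siLuc replicate 1 or 3 or siTARDBP replicate 2. The cause of these changes in count was not tested.

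With the replicate number as a block, the PFKP difference was -2.17, that of TARDBP -0.98 (limma adjusted p = 4.12e-05), and 1747 probes, 5 glycolysis and transport genes, 4 cryptic exon genes and 1 microRNA machinery gene were called. Signal over background left 32.0% of probes tested, and PFKP rests on 1 probe whose place in the message is unknown here.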
